A study of Mus musculus with 6 samples.

Results

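Antiviral interferon-stimulated effectors are genes that cells switch on when interferon binds its receptor. Their products attack viral RNA, block translation, modify proteins or hold virus particles at the cell surface. The 10 genes described here are Ifit1, Ifit2, Ifit3, Isg15, Oasl2, Oas1a, Rsad2, Usp18, Ifi44 and Bst2. They were taken by symbol from a table of 12623 genes measured in lung endothelial cells (EC), and all 10 were found, each with 1 transcript row. Measured levels played no part in the rule, although the list was drawn up with earlier results of these data known.

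The cells came from the lungs of C57BL/6N mice of 2 ages, infant (the second postnatal week) and young adult, with 3 libraries for each age. The labels name no transgene or treatment for either group. After lung digestion, viable EC positive for CD31 and CD34 but negative for the leukocyte antigen PTPRC, the lymphatic proteins LYVE1 and PDPN and the erythroid antigen LY76 were sorted. The infant libraries represent vessels that are still growing and the young adult libraries vessels at rest, and the comparison asks which transcripts change as EC become quiescent. Values are RPKM, read numbers scaled to transcript length and to library size, so levels can be compared between genes. It is not stated whether the 3 libraries of an age came from separate mice. The p-values thus set the difference between the ages against the spread between these libraries, which may be technical. The number of reads in each is not known, so no counting error could be given.

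Interferon reaches these genes by a short route. A receptor at the membrane activates the kinases JAK1 and TYK2, and these phosphorylate STAT proteins such as STAT2, which enter the nucleus in a complex with IRF9. The complex binds the interferon-stimulated response element (ISRE), a DNA motif in promoters of antiviral genes, whereas the response to interferon gamma runs through a different motif, the gamma-activated site (GAS). Vascular endothelium carries interferon receptors and is known to respond to interferon in the lung.

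Promoter sequences were searched for both motifs. Each promoter spanned 250 bases before to 50 bases after the transcription start in RefSeq (GRCm38.p6, the coordinates of mm10), and 9 of the 10 genes had an entry, Usp18 being the exception. The start used was not always the first base of the gene. For Ifit3 the window began at 34583279, inside the gene's annotated span, which begins at 34583119. The bases before that span were not searched. The core of the ISRE was searched as GAAANNGAAA on either strand. It was present in 6 of the 9 genes (66.7%), against 3.99% of all 27025 genes with a promoter entry. The sequences below show these 6 promoters around the match, on the strand of the gene, with the matched bases in capitals, because they carry the letters that the transcription factor complex is known to read.
Isg15 (chr4:156200850-156200921, minus strand): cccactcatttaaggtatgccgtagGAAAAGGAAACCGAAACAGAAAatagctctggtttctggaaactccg
Oas1a (chr5:120907505-120907570, minus strand): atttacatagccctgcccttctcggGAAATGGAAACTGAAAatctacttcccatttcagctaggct
Bst2 (chr8:71537562-71537627, minus strand): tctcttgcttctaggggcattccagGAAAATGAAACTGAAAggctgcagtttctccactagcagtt
Ifit1 (chr19:34640760-34640838, plus strand): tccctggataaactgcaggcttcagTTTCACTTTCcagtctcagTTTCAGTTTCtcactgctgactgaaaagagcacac
Ifit3 (chr19:34583348-34583441, plus strand): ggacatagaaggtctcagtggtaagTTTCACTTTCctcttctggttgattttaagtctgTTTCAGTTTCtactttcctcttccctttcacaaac
Rsad2 (chr12:26456538-26456597, minus strand): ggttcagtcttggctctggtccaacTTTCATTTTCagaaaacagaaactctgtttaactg

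Positions are counted from the start, with negative values before it. In Isg15 3 matches overlapped in a single run that began at -78 and ended at -57. Oas1a and Bst2 each held 2 overlapping matches, which began at -20 and -130. In Ifit1 and Ifit3 the 2 matches were apart and lay on the strand opposite to the gene, as did the 1 match of Rsad2. The windows of Ifi44, Oasl2 and both starts of Ifit2 had none of these letters. For Ifit2 the earlier window began at 34550444 and the gene's annotated span at 34550550. Bases before 34550444 were not searched, so these windows do not show whether Ifit2 has a match further upstream. The GAS motif, searched as TTCNNNGAA, which reads the same on both strands, was found in Bst2, in Oas1a and at 1 of the 2 starts of Ifit2, that is in 33.3% of the 9 genes against 9.55% of all genes. In Bst2 it overlapped the first ISRE match. A match describes letters in a window and does not show that a factor was bound.

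**Figure D1:**
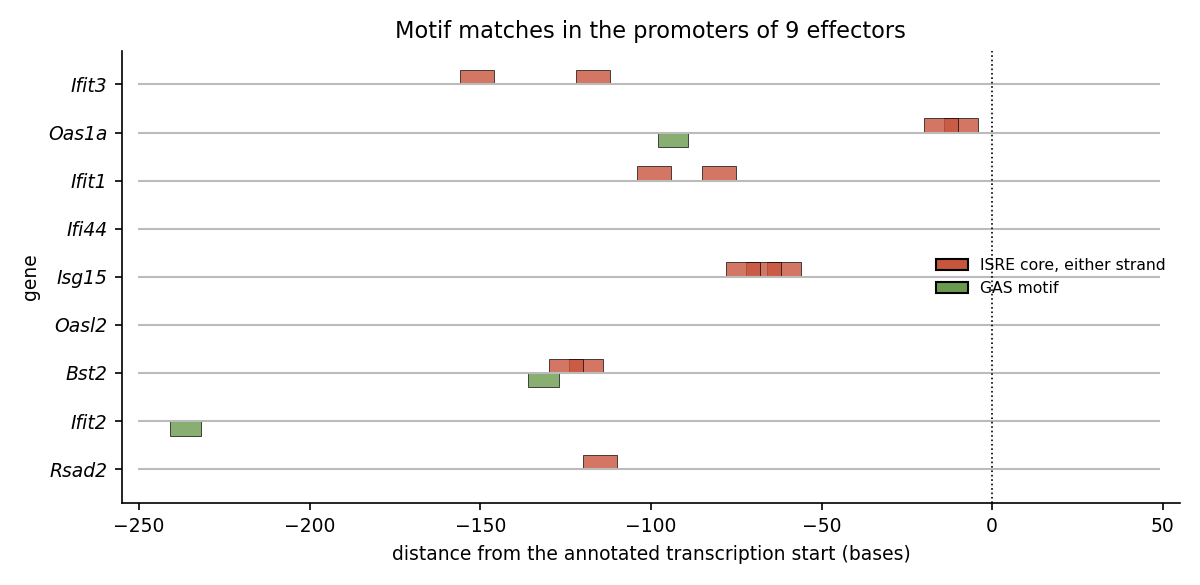
Matches of the ISRE core (above each line) and of the GAS motif (below) in 9 promoters, by distance in bases from the annotated start (dotted line), with both starts of Ifit2 overlaid on 1 line. ISRE matches lie between -156 and -5 in 6 genes, among them Rsad2, whose level did not pass the test.

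Some facts of the libraries bear on all values below. Across genes, infant replicate 2 correlated at 0.963 and 0.964 with the other infant libraries and at 0.949 to 0.963 with the young adult libraries, whereas the other infant libraries correlated with those at 0.896 to 0.912. Summed over 8 fibroblast markers it held 238.8 RPKM, against 697.9 and 1112.1 in the other infant libraries and 8.4 to 18.1 in the young adult libraries. All 12 endothelial markers had a row, and their sum was 3040.7 to 4485.2 RPKM in infant and 5042.8 to 5404.3 RPKM in young adult libraries. The methods speak of female mice, but the Y-linked genes Ddx3y and Eif2s3y measured 15.1 to 21.9 RPKM in the infant libraries and 0 in all young adult libraries, while Xist, the X-inactivation transcript, was above 7 RPKM in every library. Every infant library thus held Y-linked transcripts together with Xist, at 8.2, 8.7 and 7.6 RPKM against 15.6, 12.5 and 13.4 RPKM in young adults. The sex composition of the libraries thus differed with age, and sex and age cannot be told apart. In bulk RNA, fewer cells of a type and less RNA per cell cannot be told apart either.

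Of the 10 effectors, 8 were higher in young adult EC and none was lower. Calls required an adjusted p below 0.05 and a log2 fold change of more than 0.81 in either direction, in a limma fit over all 12458 genes that reached an RPKM of 1 somewhere. By this rule 3.33% of all tested genes were called higher and 8.1% were called lower. The same 8 genes were those in which every young adult library lay above every infant library, which was so for 16.4% of all tested genes. Over the 10 genes the median log2 fold change was 1.79, beside -0.07 over all tested genes. Log2 fold changes are of RPKM + 1, which understates changes of weakly expressed genes. Without infant replicate 2 the count was again 8 and the median was 2.17. The count fell to 5 without young adult replicate 1, which took away Oasl2, Usp18 and Ifi44.

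**Figure D2:**
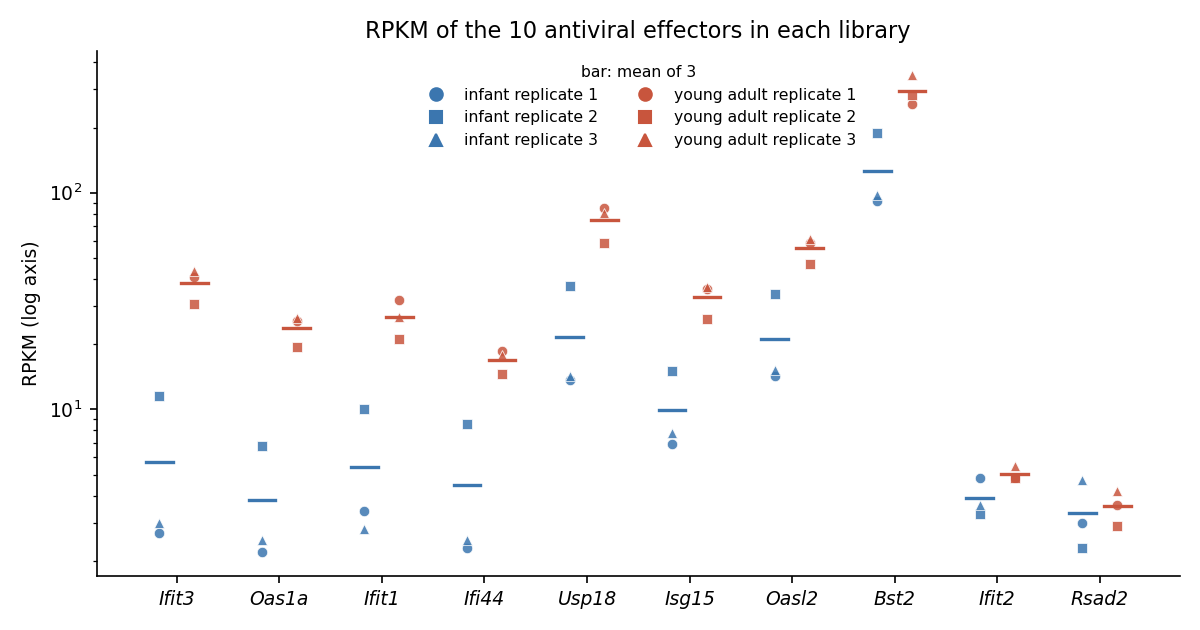
RPKM on a log axis of the 10 effectors in each infant (blue) and young adult (red) library, with bars at the mean of 3 and genes ordered by log2 fold change. Young adult libraries lie above all infant libraries in the first 8 genes and overlap with them in Ifit2 and Rsad2, and infant replicate 2 (blue square) is the highest infant library in the 8.

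The IFIT proteins bind viral RNA and the translation machinery. Ifit3 (chromosome 19 in GRCm38.p6, as for all positions, 34583119 to 34588982) had the largest change of the 10. In the order of their replicate numbers, used throughout, infant libraries held 2.7, 11.5 and 3.0 RPKM and young adult libraries held 40.9, 30.7 and 43.5 RPKM. The groups did not overlap, and the lowest young adult library was well above infant replicate 2. Its mean increased 6.69 times, from 5.73 ± 5.0 RPKM to 38.4 ± 6.77 RPKM (SD, n = 3 per age). On the log2 scale this was 2.77 ± 0.43 (SE, limma adjusted p 0.00542).

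Ifit1 (chromosome 19, 34640889 to 34650009) encodes the member that recognises RNA ends lacking the host's cap methylation. It measured 3.4, 10.0 and 2.8 RPKM in infants and 32.1, 21.2 and 26.6 RPKM in young adults. Here too no infant library reached the young adult range. The log2 fold change was 2.26 ± 0.37 (SE, adjusted p 0.00684). Ifit1 and Ifit3 kept their calls in all 6 fits that left out 1 library.

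Ifit2 (chromosome 19, 34550550 to 34576534), the gene next to Ifit3, did not pass the test. Its RPKM was 4.8, 3.3 and 3.6 in infants and 4.8, 4.8 and 5.5 in young adults. Infant replicate 1 equalled the lower young adult libraries, and infant replicate 2, the highest infant library for Ifit1 and Ifit3, was the lowest for Ifit2. The log2 fold change was 0.31 ± 0.13 (SE) with an adjusted p of 0.126 and a 95% interval of -0.002 to 0.62, which does not reach the fold threshold.

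The 3 genes are members of a cluster on chromosome 19 that also holds Ifit3b (34607530 to 34613403, listed in the table as I830012O16Rik), a close copy of Ifit3. Ifit3b rose from 2.47 ± 1.69 to 17.3 ± 2.25 RPKM (log2 fold change 2.49 ± 0.29, adjusted p 0.00215). Of all stretches of 100 bases in the Ifit3 transcript, the read length of the study, 31.7% are also found in Ifit3b, so reads could have been split between the copies. Just outside the cluster, Lipa, which encodes a lysosomal lipase, measured 21.8 ± 3.0 and 17.1 ± 0.681 RPKM (adjusted p 0.082). On the other side Pank1, an enzyme gene of coenzyme A synthesis, measured 1.27 ± 0.208 and 0.967 ± 0.153 RPKM (adjusted p 0.301).

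**Figure D3:**
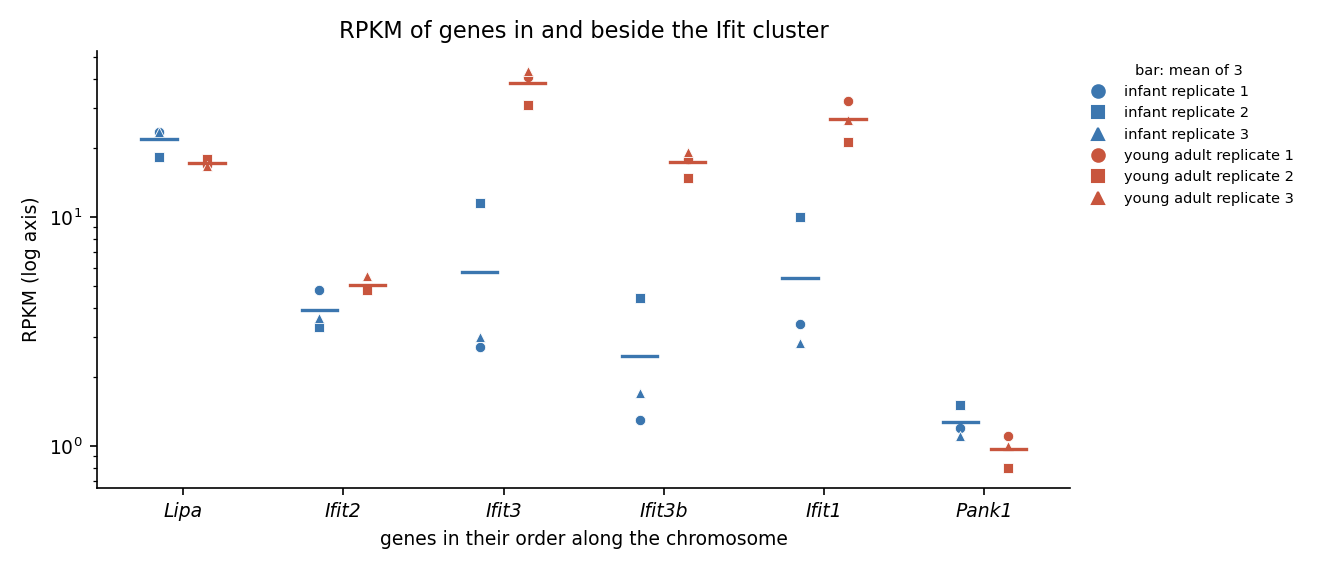
RPKM on a log axis of the Ifit genes with a row and of the nearest measured gene on each side, in their order on chromosome 19, in infant (blue) and young adult (red) libraries, with bars at the mean of 3. Ifit3, Ifit3b and Ifit1 are higher in all young adult libraries, while Ifit2, between Lipa and Ifit3, overlaps between the ages.

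The log2 ratio of Ifit3 to Ifit2 shows the difference inside this cluster without any scaling between libraries. It was -0.83, 1.8 and -0.26 in infants and 3.09, 2.68 and 2.98 in young adults. The ratio of Ifit1 to Ifit2 gave a similar picture, at -0.5, 1.6 and -0.36 in infants and 2.74, 2.14 and 2.27 in young adults. For both ratios the ages did not overlap, with mean differences of 2.68 and 2.14. The exact two-sided permutation p was 0.1 for each, the smallest that 3 against 3 libraries can give, and 0.167 after adjustment over the 5 ratios examined. The ratios were chosen after the values had been seen.

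The OAS proteins sense double-stranded RNA, and those that are active enzymes make oligoadenylates, which set off the decay of RNA. Oas1a (chromosome 5, 120896256 to 120907544) measured 2.2, 6.8 and 2.5 RPKM in infants and 25.7, 19.4 and 26.4 RPKM in young adults. Its groups were far apart, and it was the only effector called when the change was tested against that fold threshold itself. Oas1a averaged 3.83 ± 2.57 RPKM and 23.8 ± 3.86 RPKM at the 2 ages, and its log2 fold change was 2.47 ± 0.32 (SE, adjusted p 0.00307). Of its stretches of 100 bases 40.9% are shared with Oas1g, its neighbour, so reads could have been split between these genes too. Oas1g measured 0.9 ± 0.529 RPKM in infants and 6.17 ± 1.36 RPKM in young adults (limma adjusted p 0.00205). Whether reads from Oas1a added to this rise was not tested.

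Oasl2 (chromosome 5, 114896926 to 114912245) encodes an OAS-like protein with ubiquitin-like domains. Its RPKM was 14.2, 34.1 and 15.2 in infants and 58.9, 46.7 and 61.3 in young adults. Infant replicate 2 came closer to the young adult range than in any other effector when set between the other infant libraries and the young adult mean. The log2 fold change was 1.45 ± 0.30 (SE, adjusted p 0.0148), and only 2 of the 6 fits without 1 library kept the call, those that left out infant replicate 2 (1.84) or young adult replicate 2 (1.57). The lowest value was 1.24, without infant replicate 1. The log2 ratio of Oas1a to Oasl2 was -2.54 ± 0.19 in infants and -1.23 ± 0.04 in young adults, with an exact two-sided p of 0.1 (0.167 adjusted over the 5 ratios).

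In the list of the OAS system, 8 of 9 genes had a row and 6 were called higher, Oas1a and Oasl2 included. Among these Oas2 was at 0.4, 0.9 and 0.4 RPKM in infants and at 6.5, 5.4 and 4.4 RPKM in young adults, and Oasl1, an inhibitor of Irf7 translation, was at 0.633 ± 0.153 and 2.33 ± 0.115 RPKM. Oas1c was at 0.5, 1.4 and 0.9 RPKM in infants and at 1.2, 1.1 and 1.3 RPKM in young adults, which overlapped (adjusted p 0.429). Abce1, a ribosome recycling factor counted in this list, had a log2 fold change of 0.05 with a 95% interval of -0.15 to 0.24.

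Isg15 (chromosome 4, 156199424 to 156200818) encodes a small ubiquitin-like protein that is attached to other proteins. Its RPKM was 6.9, 15 and 7.8 in infants and 36.1, 26.0 and 36.6 in young adults. The highest infant and the lowest young adult library were both replicate 2, and they did not meet. Isg15 averaged 9.9 ± 4.44 RPKM and 32.9 ± 5.98 RPKM, and it rose by 1.69 ± 0.27 on the log2 scale (SE, adjusted p 0.00568).

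Usp18 (chromosome 6, 121245906 to 121270917) encodes the protease that removes ISG15 from proteins and that also blocks the interferon receptor IFNAR2. It measured 13.6, 37.0 and 14.3 RPKM in infants and 85.3, 58.7 and 80.7 RPKM in young adults. The groups were separate, and the gene rose by 1.88 ± 0.35 on the log2 scale (SE, adjusted p 0.0107), a call that was lost when young adult replicate 1 was left out (1.78). The log2 ratio of Usp18 to Isg15 was 0.98, 1.3 and 0.87 in infants and 1.24, 1.17 and 1.14 in young adults. Young adult ratios fell within the infant range, with a mean difference of 0.13 (exact two-sided p 0.4, 0.4 adjusted over the 5 ratios).

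Of the 6 genes for attaching and removing ISG15, 4 were called higher. Besides Isg15 and Usp18 these were Uba7, the activating enzyme, at 26.4, 41.6 and 23.1 against 76.6, 79.0 and 87.5 RPKM (log2 fold change 1.43), and the ligase gene Herc6 (1.09). Ube2l6, the conjugating enzyme, overlapped between the ages at 30.2, 29.0 and 50.3 against 38.7, 36.0 and 42.9 RPKM (0.14, 95% interval -0.33 to 0.62, adjusted p 0.639). Trim25 was higher in every young adult library but under the fold threshold (0.65, adjusted p 0.0126). Without young adult replicate 1 the count was 2 of 6.

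Bst2 (chromosome 8, 71534255 to 71537472), which encodes tetherin, a membrane protein that holds budding virus particles at the cell, was the most abundant effector at both ages. It measured 91.2, 187.9 and 97.3 RPKM in infants and 256.0, 281.1 and 350.9 RPKM in young adults. All young adult values exceeded infant replicate 2. The log2 fold change was 1.30 ± 0.28 (SE, adjusted p 0.0158), the smallest among the 8 called effectors, and 2 of the 6 fits without 1 library kept the call. The lowest value was 1.11, without infant replicate 1.

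Ifi44 (chromosome 3, 151730922 to 151749910) encodes a cytoplasmic interferon-induced protein. It was at 2.3, 8.6 and 2.5 RPKM in infants and at 18.5, 14.5 and 17.8 RPKM in young adults. The ages did not overlap, with a log2 fold change of 1.89 ± 0.38 (SE, adjusted p 0.0126). Without young adult replicate 1, its highest library, the value was 1.83 and the call was lost.

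Rsad2 (chromosome 12, 26442743 to 26456452) encodes viperin, a radical enzyme that turns CTP into a nucleotide that stops viral RNA synthesis. Its RPKM was 3.0, 2.3 and 4.7 in infants and 3.6, 2.9 and 4.2 in young adults. The young adult values lay within the infant range, and infant replicate 2 was the lowest library of all. The log2 fold change was 0.10 ± 0.21 (SE, adjusted p 0.745), with a 95% interval of -0.38 to 0.59. Its sign changed without infant replicate 2 (-0.07) and with array weights (-0.08).

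Cmpk2, the nucleotide kinase gene beside Rsad2, measured 3.4, 5.9 and 2.6 RPKM in infants and 6.7, 6.2 and 7.9 RPKM in young adults, with a log2 fold change of 0.72 and an adjusted p of 0.0514. The log2 ratio of Rsad2 to Cmpk2 was -0.23 ± 1.11 in infants and -0.97 ± 0.11 in young adults. The ages overlapped in this ratio (exact two-sided p 0.4, 0.4 adjusted over the 5 ratios).

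**Figure D4:**
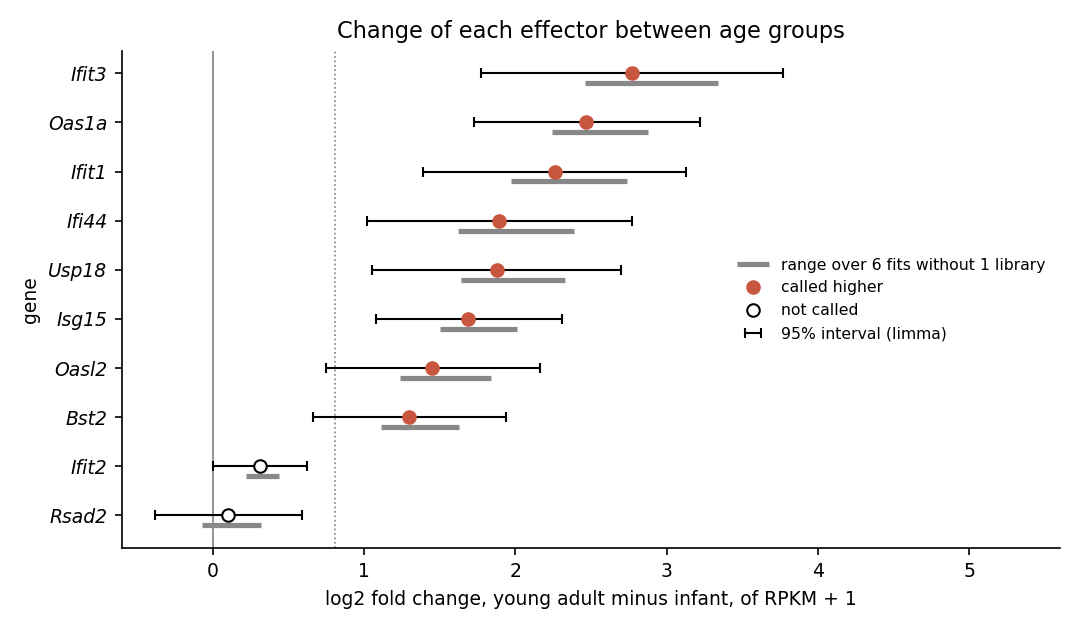
Log2 fold change of RPKM + 1 (young adult minus infant) of each effector with its 95% interval, the range over the 6 fits without 1 library in grey, and dotted the threshold of 0.81. Filled points mark the 8 called genes, from 1.30 for Bst2 to 2.77 for Ifit3, and open points Ifit2 (0.31) and Rsad2 (0.10).

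The order of the levels shifted with age. In infant EC the highest means were 125.0 RPKM for Bst2, 21.6 for Usp18, 21.2 for Oasl2 and 9.9 for Isg15. Then came Ifit3 (5.73), Ifit1 (5.4), Ifi44 (4.47), Ifit2 (3.9), Oas1a (3.83) and Rsad2 (3.33). The infant range of Bst2 lay wholly above that of the next gene, whereas the ranges of all other neighbours in that order overlapped. In young adult EC Bst2 (296.0 RPKM) was followed by Usp18 (74.9), Oasl2 (55.6), Ifit3 (38.4), Isg15 (32.9), Ifit1 (26.6), Oas1a (23.8) and Ifi44 (16.9). Neighbours from Usp18 to Oasl2 and from Ifit3 to Oas1a overlapped. All Ifi44 values lay below those of Oas1a, and Ifit2 (5.03) and Rsad2 (3.57) lay below all others without overlap. Such ranges pool libraries, whereas inside every young adult library the 10 genes kept this order. Isg15 exceeded Ifit3 in every infant library and lay below it in every young adult library.

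The called effectors mostly had the same highest infant and lowest young adult library. In infant EC replicate 2 was the highest of the 3 libraries in all 8, by 1.99 times the mean of the other infant libraries for Bst2 and by 4.04 times for Ifit3. Ifit2 and Rsad2 went the other way, at 0.786 and 0.597 times. In young adult EC replicate 2 was the lowest in 7 of the 8, with Bst2 as the exception, and Rsad2 too was lowest there. Pairs among the 8 correlated at 0.96 to 1.0 over the 6 libraries on the log2 scale, which includes the difference between the ages, while Ifit2 correlated with them at 0.45 to 0.57 and Rsad2 at -0.09 to 0.05. Within the 3 young adult libraries pairs among the 8 ranged from -0.24 (Ifit1 with Bst2) to 1.0, with a median of 0.95. All pairs below 0.8 were those with Bst2. There Rsad2 correlated with the 8 at 0.61 (Ifit1) to 0.96 (Ifit3). Within the 3 infant libraries it did so at -0.84 (Ifit1) to -0.67 (Isg15), while pairs among the 8 ranged from 0.96 to 1.0. A correlation over 3 libraries carries little weight. These values describe 6 libraries and share their depth and composition.

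Infant replicate 2 can be placed on a scale on which the mean of the other infant libraries is 0% and the young adult mean is 100%. The 8 effectors put it at 42.4 to 63.1%, with a median of 55%. Over all 415 genes called higher, the median was 36.6% and the middle range (quartiles) 19.6 to 50.9%. Over the 1009 genes called lower, the median was 44.1% and the quartiles were 17.6 and 61.5%. This library also had fewer fibroblast transcripts and more endothelial transcripts than the other infant libraries, as given above. Its summed leukocyte markers (542.7 RPKM against 340.3 and 488.8) and epithelial markers (11083.1 against 6288.8 and 8253.5) were the highest among infants. Its summed erythroid markers (9654.0 against 30422.7 and 79858.6) and mural markers (60.9 against 214.2 and 219.4) were the lowest. The part of these differences in its effector levels was not tested.

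Receptors and transducers of interferon were then examined from lists that were chosen with earlier results known. None of the 5 receptor genes with a row was called. Ifnar1, a chain of the receptor for type I interferon, was lower by a small margin at 23.5, 26.1 and 21.3 against 18.0, 18.5 and 17.5 RPKM (log2 fold change -0.37, adjusted p 0.0334, under the fold threshold). Its partner chain Ifnar2 overlapped between the ages (0.34, adjusted p 0.109), and Ifngr1, for interferon gamma, was at 0.23 (adjusted p 0.161). Il10rb, a chain of an interferon receptor that other cytokine receptors share, had the highest value of the list (0.43, adjusted p 0.083). Interferon ligand genes were not analysed here.

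Downstream of the receptors, 4 of the 7 transducers described here were called higher. Stat2, a subunit of the ISRE-binding complex, measured 16, 23.3 and 12.9 RPKM in infants and 43.5, 35.3 and 46.9 RPKM in young adults, and it rose by 1.25 ± 0.21 on the log2 scale (adjusted p 0.00683). Its partner Irf9 (1.15) and the transcription factors Irf7 (1.23) and Irf1 (1.03) were called as well. Without young adult replicate 1, 2 of the 4 calls were left. As in the effectors, infant replicate 2 was the highest infant library in all 4. The kinases Jak1 (0.31, adjusted p 0.0689), Jak2 (-0.06) and Tyk2 (-0.04) were not called.

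Among 6 feedback inhibitors with a row, Usp18 alone was called higher. Ptpn6, which encodes a phosphatase of blood cells, was called lower at 3.1, 2.8 and 8.0 against 0.7, 1.4 and 1.8 RPKM (-1.21 ± 0.34, adjusted p 0.0372), and it kept that call in 1 of the 6 fits without 1 library, that without infant replicate 2. Socs3 (-0.18), Pias1 (-0.04), Ptpn2 (0.03) and Ptpn11 (-0.18) did not pass the test.

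Of 40 further antiviral genes 34 had a row, 22 of which were called higher and 1 lower. Their median log2 fold change was 0.92. The 23 calls became 14 when infant replicate 1 or young adult replicate 1 was left out. The largest rises after Ifit3b were those of Oas2 (2.04), Oas1g (1.93) and Ifitm3 (1.73). Ifitm3 encodes a membrane protein that stops virus entry and measured 191.4, 325.7 and 245.1 RPKM in infants and 898.6, 777.1 and 799.0 RPKM in young adults. Its relative Ifitm1 was the gene called lower, at 4.2, 5.3 and 7.4 against 1.8, 2.5 and 1.2 RPKM (-1.22 ± 0.22, adjusted p 0.00931), in every fit without 1 library. Smallest in size was the change of Oas1c (0.21, adjusted p 0.429). Without infant replicate 2, 25 were called higher and 1 lower.

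**Figure D5:**
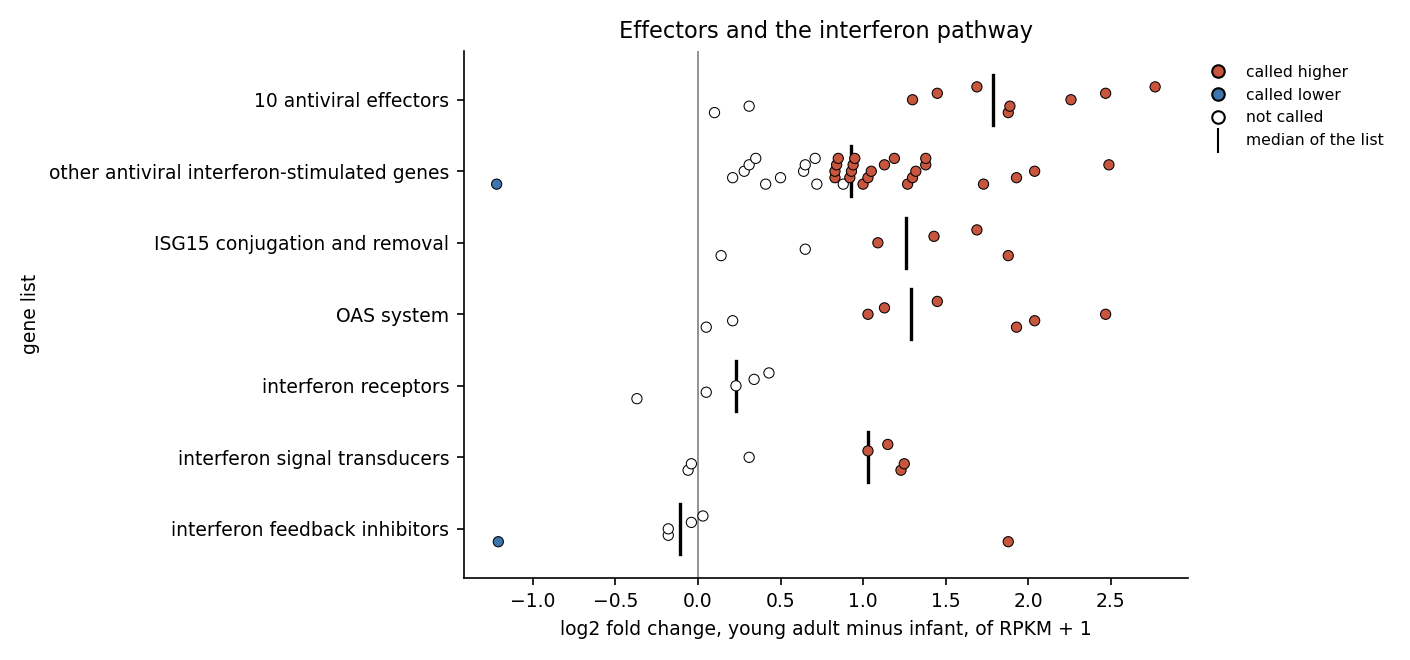
Log2 fold change of RPKM + 1 (young adult minus infant) of every tested gene in the effector list and 6 interferon lists, with filled points for called genes and a vertical bar at the median of each list. Medians run from 1.79 in the effectors to 0.23 in the receptors and -0.11 in the feedback inhibitors, and Usp18, Isg15, Oas1a, Oasl2 and other shared genes appear in more than 1 list.

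Leukocytes also express these effectors, so their markers were measured. None of 15 leukocyte markers was higher in young adult EC, 4 were called lower, and their median log2 fold change was -1.22. The summed level ranged from 340.3 to 542.7 RPKM in infant and from 145.8 to 575.3 RPKM in young adult libraries, most of it Lyz2. Ptprc, which encodes the pan-leukocyte antigen CD45, measured 4.2, 3.0 and 7.0 RPKM in infants and 0.2, 1.0 and 1.8 RPKM in young adults. Of the 8 called effectors, 3 were highest in young adult replicate 1, which had the lowest sum, and 5 in young adult replicate 3, which had the highest. Epithelial markers (7, of which 3 called lower) summed to 6288.8 to 11083.1 RPKM in infants and 1738.2 to 8114.8 RPKM in young adults. Mural markers (7, of which 6 called lower) summed to 60.9 to 219.4 RPKM in infants and 11.2 to 14.3 RPKM in young adults. Of 3 lymphatic endothelial markers with a row, Flt4 and Pdpn were not called. Lyve1, whose protein the sort selected against, measured 68.6, 171.4 and 82.7 RPKM in infants and 396.4, 307.9 and 252.9 RPKM in young adults (log2 fold change 1.65, adjusted p 0.0132). Like the called effectors, Lyve1 did not overlap between the ages and was highest among infants in replicate 2. The part of these cell types in the effector levels was not tested. Erythroid markers, at 9654.0 to 79858.6 RPKM in infant and 822.2 to 1350.6 RPKM in young adult libraries, moved with age too, with globin genes at 3.41 to 23.5% of the summed RPKM in infants and 0.307 to 0.487% in young adults. Rescaling without the globin genes gave 8 called effectors again.

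Genes whose profile over the 6 libraries was most like the mean standardised log2 profile of the 10 effectors were sought among 6976 others with a mean RPKM of at least 5. The 10 closest were Lysmd2, Phf11b, Mrpl46, Gm4070, Gbp7, Gvin1, Ifi47, Igtp, Nlrc5 and Agtrap, with Pearson correlations of 0.9985 to 0.9964. As 370 genes reached 0.95 in 6 libraries that differ mainly by age, the order among them carries little weight. Gbp7, Gvin1, Ifi47 and Igtp encode interferon-inducible GTPases, and Gm4070 and Gvin1 are near-identical in level in every library (33.4 and 33.6 RPKM in young adult replicate 2). Whether they share reads was not tested. Nlrc5, a regulator of class I histocompatibility genes, measured 0.6, 2.5 and 0.8 RPKM in infants and 9.1, 7.7 and 13.9 RPKM in young adults. Phf11b rose by 1.70 on the log2 scale (adjusted p 0.00286). Mrpl46, of the mitochondrial ribosome, had the same profile with a change of 0.45, under the fold threshold.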

How the data were processed

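RNA from sorted lung EC was amplified with the SMARTer Ultra Low kit and sequenced by the authors (paired ends of 100 bases). Per the study's methods, reads were aligned to mm10 with STAR (version not given in the sources used here) on RefSeq genes and tested with DESeq2. The authors deposited RPKM per transcript row and library, rounded to 1 decimal. Read numbers were not recovered from the rounded values and depth is unknown.

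Of 17241 rows, the row with the highest mean was kept per gene (12623 genes). 24 symbols turned into dates were restored from accessions. As RPKM are no counts, limma 3.58.1 (R 4.3.3, eBayes with intensity trend, Benjamini-Hochberg) was fitted on log2(RPKM + 1) for the 12458 genes that reached 1 RPKM in any library. A call needed an adjusted p under 0.05 and a log2 fold change over 0.81 (the study's fold threshold). Alternatives changed the pseudocount, filter, scaling, fit, transcript rows and call, added the replicate block or left out 1 library. The script was tested on simulated data. Ratios were tested by exact permutation (SciPy 1.17.1). Members and lists were chosen with earlier results of these data known. All members, the extremes of each list, the 10 most alike genes and the nearest measured neighbours are named. A few listed items are not reported here and stayed out of the lists. Older symbols were matched through RefSeq accessions. Stretches of 100 bases were compared over GENCODE M21 transcripts.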

Additional observations from a re-analysis of the deposited data

How the results depend on the processing

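The number of effectors called was 8 under every alternative but 6. Tested against the fold threshold itself it was 1, and over the 6 fits without 1 library it ranged from 5 (without young adult replicate 1) to 8. The 30 called genes of the other interferon lists became 17 with a pseudocount of 5, 3 when tested against that threshold and 17 to 33 without 1 library, the lowest count being that without young adult replicate 1, and leaving out infant replicate 1 gave 19. The cause was not tested, beyond the stricter null or fewer samples of those fits. Rsad2, which was not called, changed sign with array weights (-0.08) and ranged from -0.07 (without infant replicate 2) to 0.32 without 1 library. Over all genes the median log2 fold change moved from -0.07 to 0.04 with quantile normalization and to -0.16 when rescaled without the globin genes, an alternative added after seeing the data, and relative to it the effectors' median was 1.74 and 1.85. With the replicate number as a block, 8 effectors and 28 list genes were called. Equal numbers did not deviate together (r of 0.0282, -0.11 and -0.0208), so the libraries were not treated as paired. The difference in the log2 ratio of Oas1a to Oasl2, 1.31, was 1.02 with a pseudocount of 1 and 0.45 with 5, and quantile normalization called 532 genes higher and 611 lower. With 3 libraries per age, unknown depth and 1 decimal in the RPKM, values near 1 RPKM are coarse.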

Other observations

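Of 17 genes measured next to the effectors that were not effectors themselves, 4 were called higher and 1 lower. Over all tested genes the shares were 3.33% and 8.1%. Those higher were Eltd1 and, from the list of further antiviral genes, Ifit3b, Oas1g and Oasl1. The gene called lower was 2610524H06Rik, on the other side of Oasl2 from Oasl1, at 3.5, 2.9 and 3.5 RPKM in infants and 0.7, 1.7 and 1.3 RPKM in young adults (-0.97 on the log2 scale, limma adjusted p 0.0103). Agrn, which encodes the matrix protein agrin and lies 1891 bases from Isg15, measured 15.5 ± 0.721 RPKM in infants and 11.4 ± 1.19 RPKM in young adults (-0.42 on the log2 scale, limma adjusted p 0.0233, under the fold threshold). Mvb12a, 5435 bases from Bst2, measured 16.3 ± 1.46 and 15.7 ± 1.85 RPKM (adjusted p 0.789), and Pex26, beside Usp18, 0.9 ± 0.1 and 0.867 ± 0.0577 RPKM (adjusted p 0.905). Plvap, the gene of the endothelial diaphragm protein on the other side of Bst2, was at 53.1, 39.5 and 18.4 RPKM in infants and averaged 66.8 ± 5.83 RPKM in young adult EC (0.96, adjusted p 0.0706). Also not called were AW011738 beside Isg15 (-0.09), Rnf144a beside Rsad2 (0.29), M6pr beside Usp18 (0.40) and Gipc2 beside Ifi44 (-0.54). Eltd1 encodes an endothelial adhesion receptor and is the nearest measured gene below Ifi44 at 185841 bases. It rose from 38.9, 77.4 and 38.3 RPKM in infants to 243.9, 233.7 and 153.1 RPKM in young adults (2.06 ± 0.30, adjusted p 0.00434).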
